A study of Mus musculus with 192 samples.

Results

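The 5 mature miRs mmu-miR-122-5p, mmu-miR-192-5p, mmu-miR-194-5p, mmu-miR-215-5p and mmu-miR-483-5p (written without the species prefix from here on), which are best known from liver and gut, were followed during retinoic acid (RA) differentiation of mouse embryonic stem cells (mESCs). They were chosen by name, as 5 of the 1978 mature miRs listed in 32 small RNA libraries, and all 5 had a mean above 10 reads per library, as did 740 miRs in all, which were the ones tested. The cells were wild-type E14 mESCs, an established mouse line derived from a 129/Ola embryo. They were kept in a modified 2i medium with LIF, which holds mESCs in the pluripotent state, and then moved to N2B27 medium with 0.25 µM all-trans RA. Libraries were made before RA, called 0 h, and after 6 and 12 h, after 24 and 36 h, and after 48 h, 72 h and 96 h in RA, with 4 replicates at each of these 8 times. The replicate numbers are differentiation runs: run 3 gave 0, 24, 36, 48, 72 and 96 h, run 4 gave 6 and 12 h, and runs 5, 6 and 7 gave all 8 times. RA is used here as a general cue for leaving the pluripotent state, and the culture holds extraembryonic endoderm-like (XEN) and ectoderm-like (ECT) cells by 96 h. The comparison asks how these miRs differed between 96 h and 0 h, and at which time a difference was first seen.

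miRs are short RNAs cut from hairpin precursors. They pair with messenger RNAs mainly through the seed, bases 2 to 8 counted from the 5′ end, and lower the output of those messages. miR-122 is the most abundant miR of adult hepatocytes. miR-192, miR-194 and miR-215 are high in the epithelium of gut, liver and kidney, and the hepatic factor HNF4A is known to drive the miR-192 and miR-194-2 cluster. miR-483 is cut from an intron of Igf2, the imprinted gene for an insulin-like growth factor that is high in fetal liver and in extraembryonic endoderm. Visceral and other extraembryonic endoderm shares much of its secretory programme with liver, so none of these miRs marks hepatocytes alone.

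The mature sequences show which members could share targets. They are given 5′ to 3′ from the RefSeq annotation of mouse build GRCm38.p6, with the seed in capitals. 4 of the 5 members are printed, with miR-483-3p added because it is the other arm of the miR-483 hairpin and is compared with it below, and miR-122-5p is named only.
miR-192-5p: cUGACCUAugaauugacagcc
miR-215-5p: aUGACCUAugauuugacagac
miR-194-5p: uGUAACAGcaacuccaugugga
miR-483-5p: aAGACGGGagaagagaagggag
miR-483-3p: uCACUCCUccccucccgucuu
miR-192-5p and miR-215-5p carried the same seed, UGACCUA, and were identical at 18 of 21 positions. No other mature miR among the 1679 in the sequence table had that seed. miR-194-5p and miR-483-5p each had a seed found in no other miR of the table.

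These 4 members come from 5 hairpins. Mir194-2 (chr19:6264643-6264728) and Mir192 (chr19:6264844-6264932) are on the plus strand, outside annotated genes, with 115 bases between them. Mir194-1 (chr1:185313319-185313385) and Mir215 (chr1:185313581-185313692) are on the plus strand with 195 bases between them. They lie in an intron of Iars2, the gene for mitochondrial isoleucyl-tRNA synthetase, on the opposite strand to it, and within the long noncoding gene 2010103J01Rik on their own strand. Mir483 (chr7:142654924-142654996) lies on the minus strand in an intron of Igf2, on the same strand as that gene. miR-194-5p is thus made from both clusters, and miR-192-5p and miR-215-5p from 1 each.

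The libraries held 1046533 to 16869744 reads on miRs (median 5652543), and levels are given as CPM, a miR's reads scaled to a common library total. Counts need not be whole, since a read that fits several precursors was shared among them. 7 libraries stood apart from the other 25, namely all those of run 7 from 6 h on. On the first principal component, with 62.7% of the variance, they lay between 44.7 and 81.6, against −38.4 to 14.8 for the other 25. They held 562 to 983 miRs with a read, against 955 to 1267. In them a single miR took much of the library, miR-292a-5p with 37.0% to 51.1% at 6 to 48 h and miR-148a-3p with 41.4% and 42.1% at 72 and 96 h. High shares of miR-292a-5p were not confined to run 7, since run 6 had 38.2% at 48 h and 34.2% at 24 h. Each result below is therefore given with and without run 7 where that matters. CPM uses library totals, whereas the fit also uses a scaling factor per library (TMM). That factor was 0.291 to 0.517 in these libraries of run 7 and 0.704 to 2.30 in the other 25. CPM divided by the factor is called the scale of the fit, and on it these libraries of run 7 stand higher against the others. The label of the cells was checked in the cytoplasmic RNA of runs 5, 6 and 7, where the pluripotency factor Pou5f1 averaged 64.0 ± 13.1 CPM at 96 h and 1360 ± 71.5 CPM at 0 h, and Nanog 11.2 ± 3.28 CPM at 96 h and 892 ± 61.6 CPM at 0 h (SD, n = 3 each).

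2 of the 5 miRs, miR-122-5p and miR-483-5p, rose at 96 h against 0 h, and also at 72 h and at 48 h, while miR-192-5p and miR-194-5p were lower in every run at 96 h without passing the test and miR-215-5p had no steady direction. The test was edgeR's quasi-likelihood test on all 32 libraries, with p-values adjusted over the 740 miRs and a threshold of 0.05. Over all 740 miRs, 25.3% were called at 96 h, of which 12.8% of the total rose and 12.4% fell. The shares called were 24.1% at 72 h (13.4% rose and 10.7% fell) and 15.8% at 48 h (11.2% rose and 4.59% fell). At 24 h edgeR without a block called 0 of the 740 miRs and 0 of the members, while 101 miRs, 1 of them a member (miR-483-5p), had an unadjusted p under 0.05 and DESeq2 called 35 miRs. With the run as a block, which pairs the libraries of a run, edgeR called 162 miRs at 24 h, or 85 with run 7 left out. Of the members, only miR-194-5p was among the 162 and only miR-192-5p among the 85. At 96 h both passed with the block, with run 7 and without it. These are bulk cultures, so more cells of a type and more RNA per cell cannot be told apart.

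**Figure D1:**
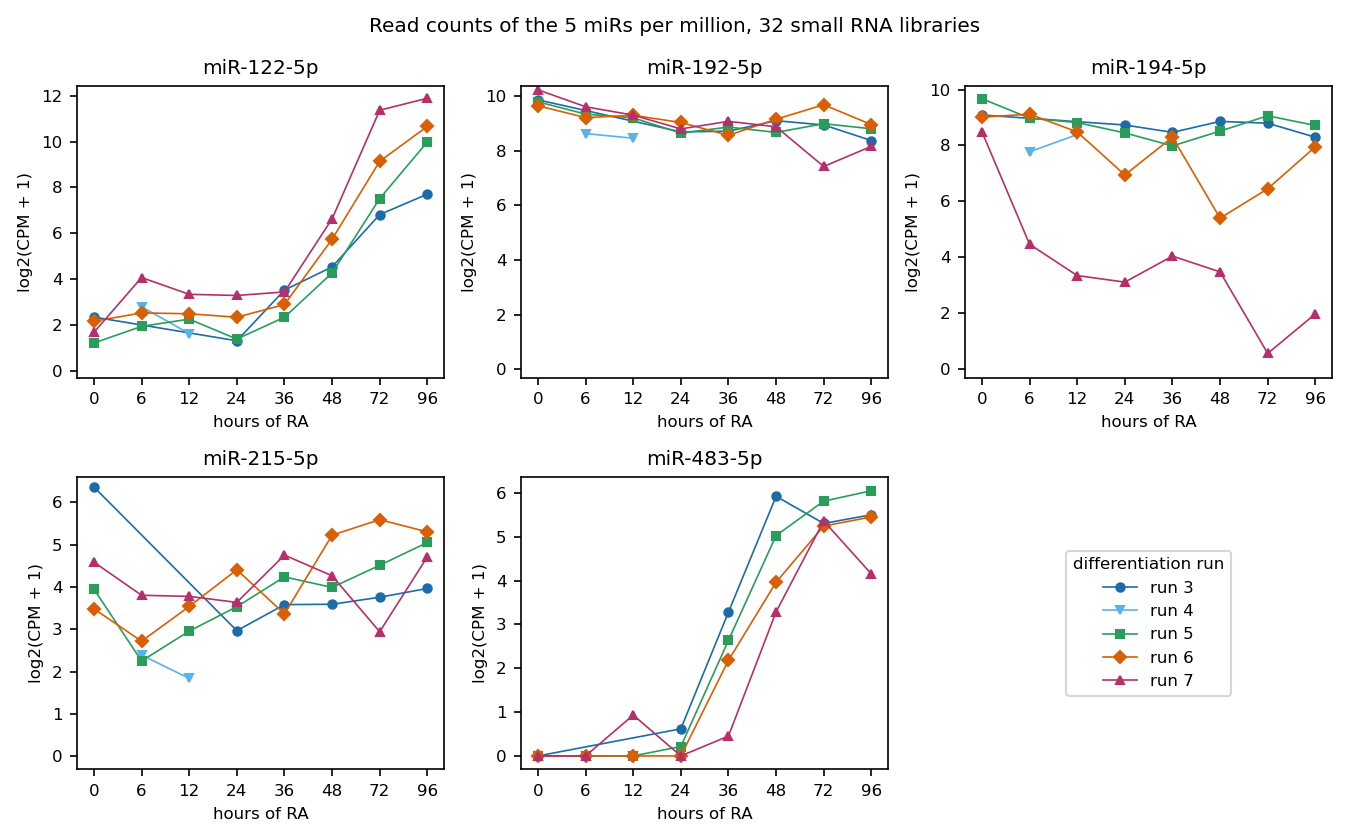
Level of each of the 5 miRs, as log2(CPM + 1), at each of the 8 times of RA (x axis, hours, evenly spaced), with 1 point per library and lines joining the libraries of a differentiation run. miR-122-5p climbed from 48 h on in every run and spread out between runs, miR-483-5p appeared from 36 h on, and miR-194-5p of run 7 lay far under the other runs from 6 h on.

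miR-122-5p was the member with the largest level at 96 h and its runs differed widely. Its levels are given here for run 3 (run 4 at 6 and 12 h), run 5, run 6 and run 7 in that order. It stayed at or under 15.8 CPM through 36 h, with 4.07, 1.31, 3.47 and 2.19 CPM at 0 h (8, 7, 22 and 37 reads), 5.95, 2.82, 4.75 and 15.8 CPM at 6 h, and 2.07, 3.76, 4.60 and 9.09 CPM at 12 h. It then stood at 1.47, 1.60, 4.04 and 8.74 CPM at 24 h and at 10.5, 4.05, 6.42 and 9.84 CPM at 36 h. The highest library at 6, 12 and 24 h was that of run 7, and the 24 h and 0 h libraries overlapped.

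From 48 h on every library was above every 0 h library. The 4 runs had 22.1, 18.2, 52.4 and 98.0 CPM at 48 h (80, 98, 413 and 425 reads), 112, 182, 564 and 2649 CPM at 72 h (571, 955, 5023 and 2772 reads), and 208, 1013, 1622 and 3807 CPM at 96 h (1209, 5102, 14017 and 18137 reads). The order of the runs was the same at 72 and at 96 h, with run 3 lowest and run 7 highest. In CPM the highest library was 23.7 times the lowest at 72 h and 18.3 times at 96 h, and 5.05 and 7.80 times with run 7 left out. On the scale of the fit the spreads with run 7 included were wider still.

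miR-122-5p averaged 1662 ± 1542 CPM at 96 h and 2.76 ± 1.24 CPM at 0 h (SD, n = 4 each). Set against its own 0 h library, the 96 h library was 51.1 times as high in run 3, 772 times in run 5, 467 times in run 6 and 1736 times in run 7. Each run thus was higher at 96 h, and the size differed widely between runs. By mean level miR-122-5p ranked 638 of 1361 miRs with a read at 0 h, 358 of 1350 at 48 h and 98 of 1412 at 96 h.

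In the fit, miR-122-5p rose at 96 h by 9.85 on the log2 scale (SE 1.94, edgeR adjusted p = 0.00025). It rose by 9.30 at 72 h (SE 1.90, edgeR adjusted p = 0.00054) and by 5.25 at 48 h (SE 1.60, edgeR adjusted p = 0.023). With all of run 7 left out the log2 fold changes were 7.56 at 96 h, 6.37 at 72 h and 3.73 at 48 h. The call at 48 h was lost without the 48 h library of run 7 (log2 fold change 3.85, edgeR adjusted p = 0.105) and without any 1 of the 0 h libraries (adjusted p between 0.055 and 0.078 in edgeR), whereas over all 18 alternatives tried its adjusted p ranged from 0.00013 to 0.105. At 24 h its log2 fold change was 1.94 (SE 1.42, edgeR adjusted p = 0.55), and with run 7 left out −0.21.

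The other arm, miR-122-3p, came from the other side of the same hairpin and was scarce. It had 5, 20, 35 and 0 reads at 96 h in runs 3, 5, 6 and 7, and 0 reads in all 16 libraries from 0 to 24 h. Run 7, highest in miR-122-5p with 18137 reads at 96 h, was the one with no read of miR-122-3p. This difference between libraries was not tested.

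miR-483-5p was the other miR that rose, and it started from nothing detected. It had 0 reads in all 4 libraries at 0 h and at 6 h, and 5 reads in run 7 with 0 in the others at 12 h. At 24 h it had 4, 1, 0 and 0 reads in runs 3, 5, 6 and 7, and at 36 h 25, 31, 27 and 3. A count of 0 at 0 h allows up to 0.178 to 1.53 CPM per library (3 reads of each total, counting error only).

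miR-483-5p then stood at 59.7, 31.6, 14.6 and 8.77 CPM at 48 h (38 reads in run 7), at 38.6, 55.3, 37.0 and 40.1 CPM at 72 h (197, 290, 329 and 42 reads), and at 44.4, 65.3, 42.8 and 16.8 CPM at 96 h (258, 329, 370 and 80 reads). All 12 of these libraries were above every 0 h library and its floor, and in CPM run 7 was lowest at 48 and at 96 h. On the scale of the fit run 7 was instead the highest at 72 and at 96 h, and run 6 was the lowest at 48 h. Its spread between runs at 96 h was far smaller than that of miR-122-5p.

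miR-483-5p averaged 42.3 ± 19.9 CPM at 96 h and 0 CPM at 0 h (SD, n = 4 each), which is at least 61.8-fold higher against the mean floor of 3 reads per 0 h library, 0.685 CPM. The bounds against the same floor were at least 6.52-fold at 36 h, 41.9-fold at 48 h and 62.4-fold at 72 h. It rose at 96 h (edgeR adjusted p = 1.3e-05), at 72 h (edgeR adjusted p = 1.3e-05) and at 48 h (edgeR adjusted p = 3.6e-05), and these 3 calls held under every alternative tried, leaving out run 7 included. At 24 h its edgeR adjusted p was 0.284.

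miR-483-3p, cut from the other side of the same hairpin, also rose (edgeR adjusted p = 6.1e-06 at 96 h). It had 269, 301, 172 and 3.15 CPM at 96 h in runs 3, 5, 6 and 7, against 1 read in all 4 libraries together at 0 h. The arms did not keep 1 ratio in all libraries. miR-483-5p made up 14.2%, 17.8% and 20.0% of the reads of both arms at 96 h in runs 3, 5 and 6, and 84.2% in run 7 (exact 95% binomial interval 75.3% to 90.9%). At 48 h the shares were 18.0%, 14.2%, 36.5% and 38.8%. At 96 h run 7 was the lowest in the 3p arm both in CPM and on the scale of the fit, and in the 5p arm in CPM only.

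The gene that holds miR-483, Igf2, was read in total RNA of runs 1 and 2, which are other cultures than those of the small RNA. Igf2 had 0.753 and 0.618 CPM at 0 h in runs 1 and 2, and in run 1 0.827 CPM at 6 h, 6.31 at 24 h, 366 at 36 h, 367 at 48 h and 359 at 72 h. At 96 h it had 546 and 561 CPM in runs 1 and 2. The high levels of Igf2 thus began between 24 and 36 h, the interval in which miR-483-5p came to be read in all 4 runs. The 36 h and 48 h libraries of run 1 differed by little more than sampling noise over all genes (1.196 times it, against 33.3 times for the next nearest of 36 pairs), so the 36 h value of Igf2 may not be separate from that at 48 h. H19, the imprinted noncoding gene beside Igf2, had 218 and 369 CPM at 96 h against 0.180 and 0.102 CPM at 0 h in runs 1 and 2. An overlapping gene model, Gm49394, also spans the miR-483 hairpin and could share reads with Igf2.

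**Figure D2:**
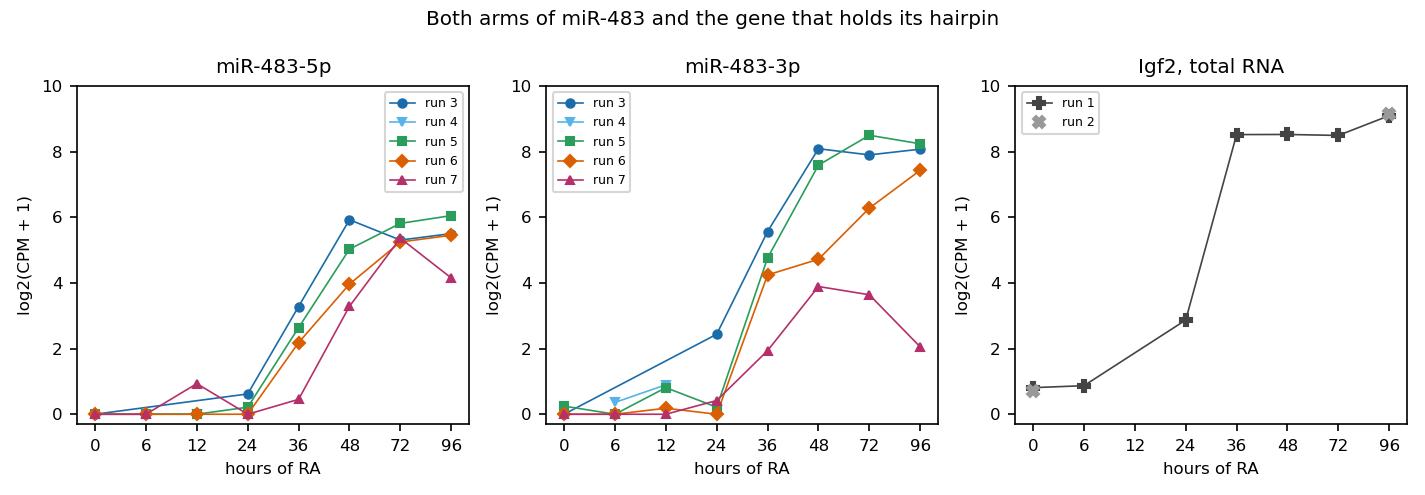
Left and middle, miR-483-5p and miR-483-3p as log2(CPM + 1) in the 32 small RNA libraries by hours of RA and differentiation run. Right, Igf2 as log2(CPM + 1) in 9 total RNA libraries of runs 1 and 2. Both arms and Igf2 were at or near 0 at 0 h and high from 48 h on, and run 7 (triangles) stayed lowest in the 3p arm at 36 to 96 h.

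miR-192-5p was the highest of the 5 members at 0 h and was lower at every later time on average. Runs 3, 5, 6 and 7 had 932, 886, 802 and 1202 CPM at 0 h, 413, 400, 524 and 445 CPM at 24 h, and 549, 407, 570 and 470 CPM at 48 h. They had 492, 508, 822 and 171 CPM at 72 h and 331, 447, 498 and 286 CPM at 96 h. In CPM the 96 h libraries all lay under the 0 h libraries, as did those of 24 and 48 h, while run 6 at 72 h overlapped them. At 6 h (396 to 782 CPM), 12 h (351 to 632 CPM) and 36 h (379 to 540 CPM) every library was in CPM also under every 0 h library. On the scale of the fit, however, run 7 lay above every 0 h library at 6, 12, 24, 36 and 48 h. Its factors were 0.437, 0.361 and 0.359 at 6, 12 and 36 h, against 1.03 to 1.36 at 0 h.

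miR-192-5p averaged 390 ± 98.6 CPM at 96 h and 956 ± 173 CPM at 0 h (SD, n = 4 each), and the 96 h library was 0.356, 0.505, 0.620 and 0.238 times the 0 h library of its run in runs 3, 5, 6 and 7. Its log2 fold change at 96 h was −1.53 (SE 0.67) and did not pass the test (edgeR adjusted p = 0.103). With the run as a block, which pairs the libraries of a run, it passed, at −1.76 (SE 0.34, edgeR adjusted p = 0.00013), and so it did with run 7 left out (−1.83, edgeR adjusted p = 0.0019). Over its 19 alternatives at 96 h the adjusted p ranged from 1.98e-05 to 0.260, 9 of them under the threshold and all of them negative. At 72 h the log2 fold change was −1.15 (edgeR adjusted p = 0.254), or −1.14 with the block (edgeR adjusted p = 0.0080). At 48 h it was −0.29 (edgeR adjusted p = 0.821) and at 24 h −0.22 (edgeR adjusted p = 0.917), although in CPM each of the 4 runs was under its own 0 h library at both times. On the scale of the fit run 7 was above its own 0 h library at both. The block alone gave −0.56 at 48 h (edgeR adjusted p = 0.178) and −0.55 at 24 h (edgeR adjusted p = 0.232), and the block with no run 7 gave −0.77 (edgeR adjusted p = 0.038) and −0.90 (edgeR adjusted p = 0.046), past the threshold. Scaled by library totals the values were −0.94 at 48 h and −1.10 at 24 h (edgeR adjusted p = 0.114 and 0.385).

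miR-194-5p, made from the cluster of miR-192 and from that of miR-215, showed the widest gap between run 7 and the rest. Its levels count only the hairpin given more reads, and so leave out the reads given to the other. Runs 3, 5, 6 and 7 had 544, 814, 515 and 358 CPM at 0 h, 424, 348, 122 and 7.65 CPM at 24 h, and 464, 365, 41.2 and 10.2 CPM at 48 h. They had 443, 533, 86.5 and 0.478 CPM at 72 h and 313, 419, 247 and 2.94 CPM at 96 h. Run 7 was the lowest from 0 h on, with 14 reads at 96 h (8 more were given to Mir194-1). Run 6 was low at 24, 48 and 72 h and then near the others at 96 h. The 96 h and 0 h libraries overlapped, run 5 at 96 h lying above run 7 at 0 h.

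At 6 h runs 4, 5, 6 and 7 had 218, 503, 555 and 21.1 CPM of miR-194-5p, at 12 h 334, 450, 357 and 9.18 CPM. At 36 h runs 3, 5, 6 and 7 had 353, 252, 313 and 15.5 CPM. The gap of run 7 was thus present from the earliest RA sample.

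miR-194-5p averaged 245 ± 177 CPM at 96 h and 558 ± 189 CPM at 0 h (SD, n = 4 each) and was under its own 0 h library in 4 of 4 runs at 24, 48, 72 and 96 h. Its log2 fold change at 96 h was −2.08 (SE 1.09) and did not pass the test (edgeR adjusted p = 0.183). With the run as a block it was −3.08 and passed (edgeR adjusted p = 0.00034), and with run 7 left out −1.75 and passed (edgeR adjusted p = 0.018), while over its 18 alternatives the adjusted p ranged from 0.00034 to 0.606. The block also moved it past the threshold at 72 h (−2.84, edgeR adjusted p = 0.00099, against −1.69 and 0.320 without it), at 48 h (−2.45, adjusted p = 0.0034 in edgeR, against −1.59 and 0.368) and at 24 h (−2.11, edgeR adjusted p = 0.025, against −1.22 and 0.643). The libraries of run 7 that stood apart from 6 h on enter each of these blocked values. With the block and no run 7 the call at 24 h was lost (−1.12, edgeR adjusted p = 0.121), while those at 48 h (−1.53, edgeR adjusted p = 0.017) and at 72 h (−1.56, edgeR adjusted p = 0.012) held. With run 7 left out and no block the values were −1.04, −1.38 and −1.42 at 24, 48 and 72 h, and none passed (edgeR adjusted p = 0.378, 0.077 and 0.056).

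Reads of miR-194-5p were set against those of miR-192-5p, since Mir194-2 and Mir192 are neighbours. At 96 h it was 0.944, 0.937, 0.496 and 0.0103 in runs 3, 5, 6 and 7, against 0.583, 0.919, 0.642 and 0.298 at 0 h. From 6 h on it lay between 0.0028 and 0.0287 in the 7 libraries of run 7. In run 6 it was 0.233 at 24 h, 0.0723 at 48 h and 0.105 at 72 h. In runs 3 and 5 the reads of miR-194-5p at the hairpin given more were thus near those of miR-192-5p at 96 h. The other hairpin was given a further 949.5 and 1106 reads there, so miR-194-5p as a whole was read more than miR-192-5p. In run 7 miR-192-5p was read where miR-194-5p nearly was not. The other product of the chromosome 19 hairpin, miR-194-2-3p, had 2.58, 5.36, 6.02 and 7.56 CPM at 96 h in runs 3, 5, 6 and 7, against 8.14, 11.8, 12.2 and 14.0 CPM at 0 h (log2 fold change −1.02, edgeR adjusted p = 0.284). Run 7 was the highest of the runs in that arm at 96 h and the lowest in miR-194-5p.

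**Figure D3:**
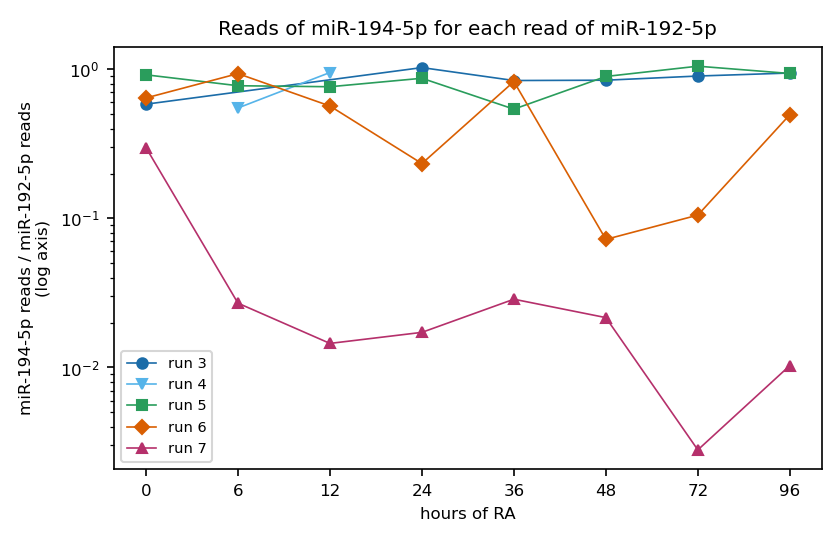
Reads of miR-194-5p, at the hairpin given more of them, for each read of miR-192-5p (log axis) in the 32 small RNA libraries, by hours of RA and differentiation run. Runs 3, 4 and 5 lay between 0.541 and 1.05, run 6 dipped to 0.233, 0.0723 and 0.105 at 24, 48 and 72 h, and run 7 lay between 0.0028 and 0.0287 from 6 h on.

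The sequence of miR-194-5p is the same in both of its hairpins, so part of the split between the clusters may rest on how the counting shared reads. In run 6 at 0 h, for example, Mir194-1 was given 1849.5 reads and Mir194-2 3263.5. Reads that fit only 1 hairpin were not told apart here from shared ones. Mir194-1 was given 31.8% to 44.0% of the reads (median 36.7%) in the 26 libraries with more than 100 reads, and Mir194-2 had at least as many as Mir194-1 in 31 of 32. The arms that tell the hairpins apart were thin. miR-194-1-3p had 0, 0, 2 and 1 reads at 96 h in runs 3, 5, 6 and 7, against 15, 27, 52 and 36 reads of miR-194-2-3p.

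miR-215-5p, which shares its seed with miR-192-5p, was a minor member with no direction that held. Runs 3, 5, 6 and 7 had 81.1, 14.4, 10.2 and 23.03 CPM at 0 h, 6.82, 10.6, 20.2 and 11.4 CPM at 24 h, and 11.1, 14.9, 36.4 and 18.2 CPM at 48 h. They had 12.5, 21.8, 47.2 and 6.69 CPM at 72 h and 14.6, 32.2, 38.4 and 25.2 CPM at 96 h. Run 3 at 0 h was above all other libraries, and the groups overlapped.

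miR-215-5p averaged 27.6 ± 10.2 CPM at 96 h and 32.2 ± 33.1 CPM at 0 h (SD, n = 4 each), and was above its own 0 h library in runs 5, 6 and 7 and under it in run 3. Its log2 fold change at 96 h was −0.23 (SE 0.93, edgeR adjusted p = 0.904), and 0.62 without the 0 h library of run 3. It ranged from 3.77 to 12.97 CPM at 6 h, from 2.58 to 12.7 CPM at 12 h and from 9.30 to 26.0 CPM at 36 h, and each of these ranges overlapped that of 0 h. For each read of miR-192-5p there were 0.0441, 0.0719, 0.0772 and 0.0882 reads of miR-215-5p at 96 h in runs 3, 5, 6 and 7, against 0.0870, 0.0163, 0.0127 and 0.0192 at 0 h. Of the pair with the seed UGACCUA, miR-192-5p thus made up most of the reads at both times.

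**Figure D4:**
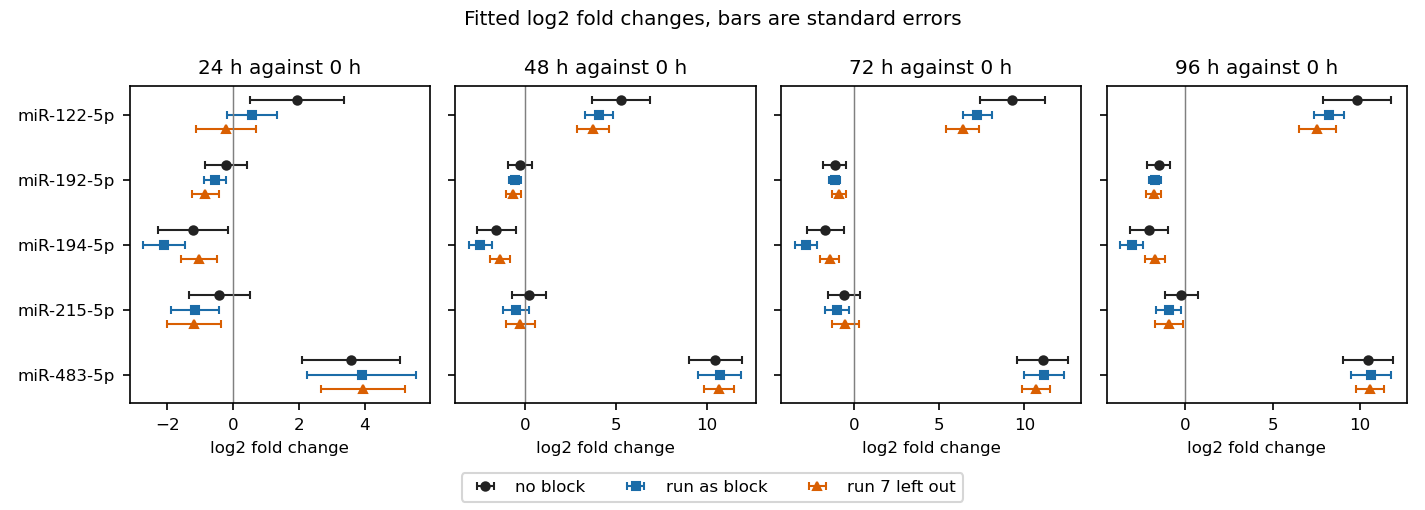
Fitted log2 fold changes of the 5 miRs at 24, 48, 72 and 96 h against 0 h, with standard errors as bars, from edgeR without a block (circles), with the run as a block (squares) and with run 7 left out (triangles). miR-122-5p and miR-483-5p lay far above 0 at 48, 72 and 96 h in all 3 fits, and each panel has its own x scale.

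The order of the members by mean level differed between 96 h and 0 h. At 96 h it was miR-122-5p (208 to 3807 CPM), miR-192-5p (286 to 498 CPM), miR-194-5p (2.94 to 419 CPM), miR-483-5p (16.8 to 65.3 CPM) and miR-215-5p (14.6 to 38.4 CPM), and each neighbour overlapped the next. At 0 h it was miR-192-5p (802 to 1202 CPM), miR-194-5p (358 to 814 CPM), miR-215-5p (10.2 to 81.1 CPM), miR-122-5p (1.31 to 4.07 CPM) and miR-483-5p (0 CPM). There only the top pair overlapped. These levels take miR-194-5p at the hairpin given more reads. Its hairpins together were given more reads than miR-192-5p in runs 5 and 6 at 0 h (2394 and 4341 in run 5, against 4726). The same held in runs 3 and 5 at 96 h. For each read of miR-192-5p there were 0.627, 2.27, 3.26 and 13.3 reads of miR-122-5p at 96 h in runs 3, 5, 6 and 7, against 0.00437, 0.00148, 0.00433 and 0.00183 at 0 h. Run 3 was the only 1 of the 4 in which miR-192-5p still outnumbered miR-122-5p at 96 h.

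Set beside miRs of other cell types, the members did not move as a group. Their median log2 fold change at 96 h was −0.23, against 0.17 for all 740 miRs. Of the 10 miRs of embryonic stem cells on the comparison list, 7 fell at 96 h and none rose (median −2.49), and of 4 neural miRs tested 2 rose, miR-9-5p by 2.47 and miR-219a-5p by 5.58 on the log2 scale. The libraries of miR-9-5p had 381 to 3981 CPM at 96 h and 120 to 302 CPM at 0 h. Those of miR-219a-5p had 2.10 to 1383 CPM at 96 h and 3.56 to 9.56 CPM at 0 h, so its rise was not seen in every library. At 48 h the stem cell miRs had a median of −0.71 with 0 of 10 called by edgeR (0 at an unadjusted p under 0.05).

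The miRs whose profiles were most like those of the members are given as a description, by Pearson's r of log2(CPM + 1) over the 32 libraries among 572 miRs with a mean of 50 reads (571 for miR-483-5p), and again over 24 libraries without run 7. The libraries of a time or run are not independent points. For miR-122-5p they were miR-455-5p (0.89, and 0.95 without run 7), miR-99a-5p (0.89 and 0.95) and miR-219a-1-3p (0.89 and 0.90). For miR-483-5p they were miR-216b-5p (0.98 and 0.98), miR-217-5p (0.98 and 0.98) and miR-219a-2-3p (0.97 and 0.98). For miR-194-5p they were miR-361-5p (0.99 and 0.93), miR-425-3p (0.98 and 0.90) and miR-30c-5p (0.98 and 0.89). miR-192-5p had lower values, with miR-1843b-5p (0.78 and 0.60), miR-1843a-5p (0.78 and 0.60) and let-7i-5p (0.74 and 0.66), as had miR-215-5p, with miR-152-5p (0.68 and 0.75), miR-743a-5p (0.68 and 0.67) and miR-5121 (0.62 and 0.63). Between members, miR-122-5p and miR-483-5p had 0.82 (0.86 without run 7). The clustered pair miR-192-5p and miR-194-5p had 0.39 (0.09), and the pair of 1 seed, miR-192-5p and miR-215-5p, 0.34 (0.39).

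Messenger RNA was read in cytoplasmic and nuclear fractions labelled runs 5, 6 and 7, so that the members could be set beside the genes of endoderm, liver and gut. In cytoplasmic RNA 67.7% of 11675 genes were called at 96 h against 0 h, with 33.3% rising and 34.4% falling, and in nuclear RNA 55.5% of 11934 genes, with 27.7% rising and 27.8% falling (edgeR, adjusted p under 0.05). These shares are the background of the counts that follow. The fraction tables used here held 87 of the 117 listed genes. Genes of chromosomes 7, 8, 9, X and Y, of the mitochondrial genome, and 21.7% to 36.0% of those annotated on each of chromosomes 17, 18 and 19, were not analysed in them, Igf2 and H19 among these. CPM in the fractions is relative to the reads on the listed genes only.

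Of 8 liver-enriched transcription factors tested in cytoplasmic RNA, 7 rose and 1 fell (5 rose and 1 fell in nuclear RNA). The pioneer factor Foxa2 had 78.3, 76.6 and 99.8 CPM at 96 h in runs 5, 6 and 7, against 0, 0.191 and 0.398 CPM at 0 h, and rose by 8.39 on the log2 scale. Gata4 had 264, 295 and 369 CPM at 96 h, against 1.46, 2.00 and 1.14 CPM at 0 h, and rose by 7.58. Hnf4a, known to drive the miR-192 cluster, had 12.8, 11.6 and 23.7 CPM at 96 h, against 5.75, 5.44 and 6.02 CPM at 0 h, and rose by 1.35 (SE 0.29, edgeR adjusted p = 0.00029), though its nuclear RNA did not pass (1.41, edgeR adjusted p = 0.052). Its course was not a steady rise. In cytoplasmic RNA Hnf4a had 1.49, 1.10 and 1.86 CPM at 24 h and 2.86, 2.70 and 3.61 CPM at 48 h. Every library of these times was under every 0 h library, in nuclear RNA as well, and neither time was tested. Nr5a2, a nuclear receptor of liver and of mESCs, fell by 4.99.

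Of 7 genes of secreted plasma proteins and their uptake tested, 5 rose and 1 fell in cytoplasmic RNA. Cubn, the uptake receptor of visceral endoderm and gut, had 891, 964 and 1114 CPM at 96 h in runs 5, 6 and 7, against 0, 0.0954 and 0.0568 CPM at 0 h. The fetal plasma protein gene Afp had 6.85, 7.32 and 10.8 CPM at 96 h and 0 CPM at 0 h in all 3 runs, and Ttr, for a thyroid hormone carrier, had 5.99, 4.73 and 7.94 CPM at 96 h and 0 CPM at 0 h. The list summed to 976 to 1195 CPM at 96 h and to 6.53 to 7.89 CPM at 0 h, most of it at 96 h from Cubn.

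Genes of mature hepatocytes did not appear. Of 7 in the tables only 2 had enough reads to be tested, and both fell, Ass1 of the urea cycle by 4.38 and Cps1 of the urea cycle by 2.06. Alb, for albumin, had 0.311, 0.0615 and 0 CPM at 96 h in runs 5, 6 and 7 and 0 CPM at 0 h. The list summed to 38.6 to 41.5 CPM at 96 h, nearly all Ass1, and to 696 to 764 CPM at 0 h. Of 5 genes of intestinal epithelium tested, Krt20 and Lgr5 rose, Cdx1 (1.07 ± 0.67 CPM at 96 h, 251 ± 27.0 CPM at 0 h, SD, n = 3 each) and Cdx2 fell, and Vil1 had a log2 fold change of 0.54 (edgeR adjusted p = 0.319).

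All 8 XEN markers in the tables rose, in cytoplasmic and in nuclear RNA, and their summed level was 11093 to 16698 CPM at 96 h against 213 to 226 CPM at 0 h. Among the fraction libraries of 96 h, that labelled run 7 was highest in Gata4, Gata6, Sox7, Sox17, Pdgfra, Dab2, Lamb1 and Sparc, and that labelled run 5 was lowest in 6 of these 8. The small RNA library labelled run 7, among those that stood apart above, was the highest in miR-122-5p at 96 h and that labelled run 5 the lowest of these 3 runs. Whether the same cultures gave both kinds of library, and the part of XEN cell number in the level of miR-122-5p, were not tested. Markers of neuroectoderm (4 of 4 tested rose) and of fibroblasts (4 of 4) moved with them, and those of pluripotency fell (4 of 4).

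**Figure D5:**
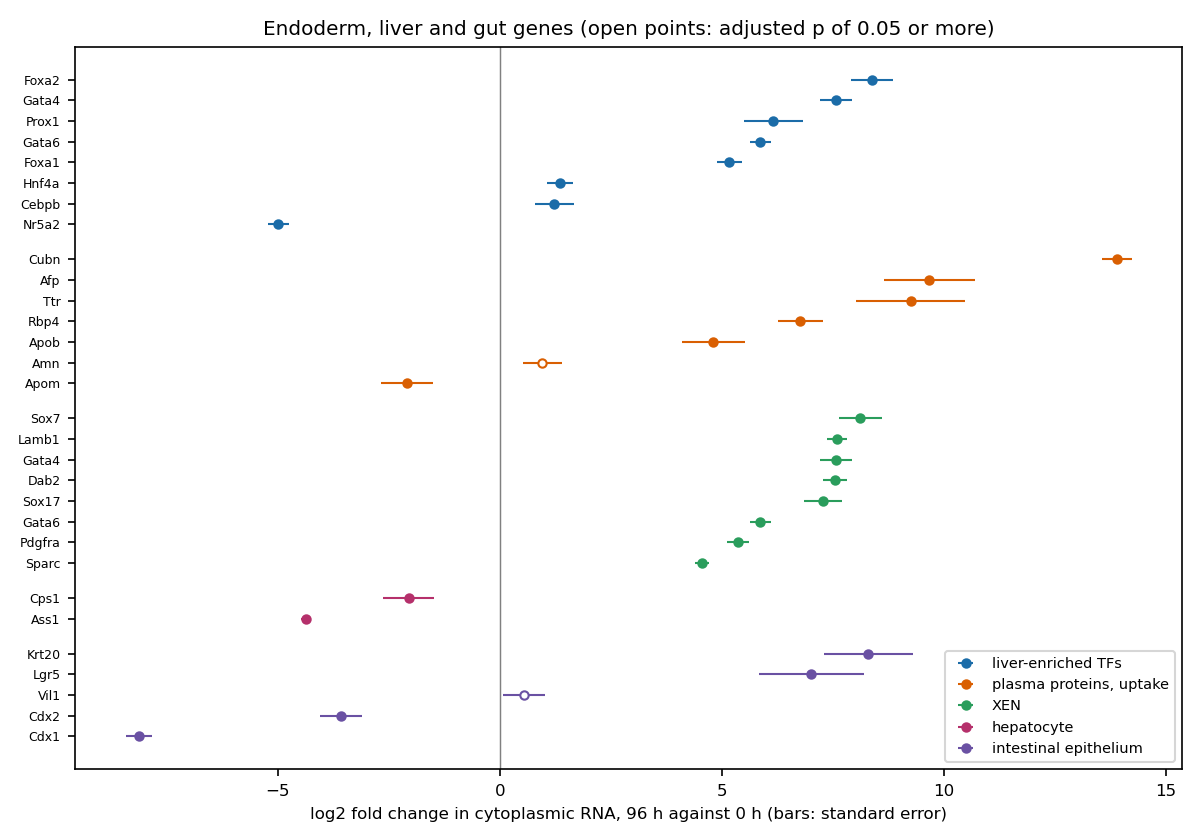
Log2 fold changes in cytoplasmic RNA at 96 h against 0 h for listed genes of 5 groups (colours), with standard errors as bars, n = 3 each, and open points for genes that did not pass the test. XEN markers and most liver-enriched factors lay above 0, while the hepatocyte genes Cps1 and Ass1 and the gut factors Cdx1 and Cdx2 lay under it. Gata4 and Gata6 stand in 2 groups.

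The genes around the hairpins gave little reading of them. Iars2 had 120, 124 and 127 CPM at 96 h in runs 5, 6 and 7, against 171, 174 and 180 CPM at 0 h in cytoplasmic RNA, and fell by 0.63 on the log2 scale. It lies on the other strand from Mir194-1 and Mir215. 2010103J01Rik, on their strand, had 0 reads in all cytoplasmic and nuclear libraries of 96 and 0 h and 2 reads in 1 of 9 total RNA libraries. Bpnt1, beside Iars2, fell by 2.16, and Atg2a, near the chromosome 19 cluster, fell by 1.80, to 54.0 ± 1.00 CPM at 96 h against 172 ± 20.8 CPM at 0 h (SD, n = 3 each).

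Genes reported elsewhere as targets of the members did not fall as groups. Of 6 miR-122 targets tested in cytoplasmic RNA, 3 rose (P4ha1 by 3.28, Klf6 by 1.63 and Cd320 by 0.68) and 1 fell, the arginine transporter gene Slc7a1, with 140, 160 and 189 CPM at 96 h in runs 5, 6 and 7 against 165, 171 and 186 CPM at 0 h (log2 fold change −0.23, SE 0.098, edgeR adjusted p = 0.048). The Slc7a1 groups overlapped, and its nuclear RNA did not pass (−0.17, edgeR adjusted p = 0.243). Of 8 targets of the seed that miR-192-5p and miR-215-5p share, 3 rose, among them the mesenchymal factor Zeb2 by 8.53, and 1 fell, the thymidylate synthase gene Tyms by 0.33. Of 6 miR-194 targets, 5 rose, among them the cadherin gene Cdh2 by 4.94, and Socs2 fell by 1.02. Of 3 miR-483-5p targets, 2 rose, Srf by 1.23 and Arhgdia by 0.48. The lists had medians of 0.38, 0.08, 1.02 and 0.48 on the log2 scale, against −0.02 for all genes.

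Cells sorted at 96 h into XEN and ECT gave 1 total RNA library each, so the values below have no test, and they are called by their titles, since another label of each goes against the sorting protocol. Pdgfra, the XEN sort marker, had 677 CPM in XEN cells and 224 CPM in ECT cells, and Cd24a, the ECT sort marker, 18.9 and 705 CPM. Igf2 had 307 CPM in XEN cells and 1191 CPM in ECT cells, and H19 149 and 328 CPM, so the gene that holds miR-483 was high in both. Cubn was higher in XEN cells (948 CPM, against 405 in ECT cells), as was Sox7 (140 against 15.2 CPM). Of 9 XEN markers, 6 were over 2-fold higher in XEN cells. Dab2 (1115 in XEN cells and 968 CPM in ECT cells), Col4a1 (2896 and 2606 CPM) and Gata4 (624 and 401 CPM) were not. XEN markers were thus also read at high levels in the ECT library, so a higher value there does not place a gene in ectoderm-like cells. Afp (1.09 in XEN cells and 24.4 CPM in ECT cells), Ttr (14.8 and 79.2 CPM), Rbp4 (26.1 and 311 CPM) and Foxa1 (1.51 and 40.6 CPM) were higher in ECT cells. Of 15 genes of plasma proteins and uptake, 11 had at least 1 CPM in either library, and of these 2 were over 2-fold higher in XEN cells and 9 in ECT cells. Over all 13675 genes with at least 1 CPM in either, 3.77% were over 2-fold higher in XEN cells and 23.9% in ECT cells. Of 10 hepatocyte genes, 9 were under 1 CPM in both. No small RNA library of sorted cells was analysed here, so the cells in which miR-122-5p and miR-483-5p were read cannot be told apart.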

How the data were processed

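Total RNA with small RNAs was sequenced after the NEBNext small RNA kit, and the deposited values are estimated counts per mature miR and precursor, which the authors made by trimming reads (Trimmomatic) and counting them against miRBase hairpins with miRDeep2's quantifier (Bowtie 1.0.0-1; mm10 and GRCm38 are the builds in the submitters' processing notes). For cytoplasmic, nuclear and total RNA the deposited values are expected counts per gene from RSEM. A mature miR listed for several precursors was taken at its highest value, which leaves out reads given to its other precursors. CPM scales the reads of a library on all miRs to 1 common total. Expected counts were rounded for edgeR 4.0.16 (R 4.3.3; TMM scaling, quasi-likelihood test, mean count over 10, Benjamini-Hochberg, 0.05), with time as a factor over all libraries of a kind. DESeq2 1.42.0 was an alternative, as were other scalings and filters, a replicate block and leaving out libraries, and leaving out run 7 was chosen after seeing the data. The fraction tables (24 libraries each of cytoplasmic and nuclear RNA) had 6860451 to 30624948 reads. Per the labels a replicate number is a differentiation run, so runs pair samples; deviations of the same run at 96 h and 0 h from their group means had correlations of 0.186, 0.397, 0.033 and 0.540 for runs 3, 5, 6 and 7, and in the fractions they were near 0, at 0.069, 0.017 and 0.041 in cytoplasmic and −0.0014, 0.057 and 0.112 in nuclear RNA of runs 5, 6 and 7. Intervals and floors cover counting error only. Genes named are the members, their other arms, the 3 miRs most like each member, and listed genes; the members and lists were chosen with earlier results of these data known, and the target lists come from general knowledge, as do the marker lists. The scripts were tested on simulated data. There the miR test at 96 h recovered 5%, 40% and 70% of 2-fold, 4-fold and 8-fold rises. It recovered 2.5% of changes to 0.5-fold and 30% of changes to 0.25-fold. A miR that did not pass may therefore still have changed. Not used here were the libraries of cells transfected with miR mimics or inhibitors (1 of them miR-194-1-3p, none a member), the other total RNA libraries and a table of reads in coding and untranslated sequence. Some listed genes are not reported here. Figures were drawn with matplotlib 3.10.9.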

Additional observations from a re-analysis of the deposited data

Results flagged for a closer look

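In 2 of 38 groups of 4 libraries, over the members and times, 1 library lay far from the other 3 by Dixon's test at its 95% critical value, where chance flags about 1 in 20 groups. miR-192-5p at 12 h had 351 CPM in run 4, with the others between 590 and 632 CPM. miR-483-5p at 12 h had 0.909 CPM in run 7 (5 reads), with 0 reads in the other 3 libraries. Where 3 libraries have 0 reads, any read in the remaining library is flagged, so the rate of chance flags does not apply to that group.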

How the results depend on the processing

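The calls of miR-122-5p at 96 and 72 h and of miR-483-5p at 96, 72 and 48 h held under all 18 alternatives each. Of the members' values under alternatives, 75 of 91 at 96 h, 84 of 91 at 72 h, 72 of 91 at 48 h and 82 of 90 at 24 h kept their direction and their side of the threshold. The causes of the changes below were not tested.

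With the run as a replicate block, which pairs the libraries of a run, edgeR called 326 miRs at 96 h (187 without it), 320 at 72 h (178), 296 at 48 h (117) and 162 at 24 h (0), and miR-192-5p (−1.76) and miR-194-5p (−3.08) passed at 96 h. With the replicate block and no run 7 the counts were 360, 285, 246 and 85, and the values −1.87 and −1.77. The block changed no count in cytoplasmic or nuclear RNA by over 1.5 times. At 96 h the calls without the block were 95 up and 92 down, and with it 130 and 196.

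With run 7 left out, the counts were 281 at 96 h, 181 at 48 h and 13 at 24 h. miR-192-5p then had −1.83 and miR-194-5p −1.75 at 96 h, or −1.97 and −1.66 with runs 6 and 7 left out, each past the threshold. A minimum of 10 counts in every library left 70, 67, 35 and 1 called at 96, 72, 48 and 24 h. Scaling by library totals gave 75 at 48 h, and at 96 h it moved the median of all miRs to 0.74 and the calls to 112 up and 44 down. DESeq2 called 35 at 24 h. miR-192-5p at 96 h also passed with DESeq2 (−1.51), its size factors in edgeR (−1.51), library totals (−1.29) and the minimum of 10 counts (−1.57).

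Leaving out 1 library at a time gave 150 to 181 calls at 96 h, 125 to 161 at 72 h, 80 to 108 at 48 h and 0 to 1 at 24 h. The log2 fold changes at 96 h were then 7.51 to 10.34 for miR-122-5p, −2.08 to −1.19 for miR-192-5p, −2.21 to −1.69 for miR-194-5p, −0.98 to 0.62 for miR-215-5p and 10.34 to 10.58 for miR-483-5p. miR-192-5p passed without the 96 h library of run 7 (−2.08, edgeR adjusted p = 0.042).

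Values that changed sign were those of miR-215-5p at 96 h (above), at 72 h (−1.27 to 0.25 without 1 library) and at 24 h (−1.02 to 0.44), those of miR-192-5p at 24 h (−0.94 to 0.014), and those of miR-122-5p at 24 h (−0.0087 to 2.32 without 1 library, −0.21 without run 7, −0.53 without runs 6 and 7 and −0.13 with the replicate block and no run 7). miR-215-5p at 48 h, 0.20, changed sign with library totals (−0.67), without a filter (−0.0047), with the replicate block (−0.51), without run 7 (−0.26), without runs 6 and 7 (−1.95), with the replicate block and no run 7 (−0.92) and without single libraries (−0.23 to 1.06).

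Depth limits the low members: miR-122-5p rested on 7 to 37 reads at 0 h, miR-483-5p on none, and miR-194-5p of run 7 on 14 reads of Mir194-2 at 96 h (8 of Mir194-1).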
